A study of Rattus norvegicus with 4 samples.

Results

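Cholesterol genes were followed by RNA-seq in the rat glial progenitor line CG4 after transduction with Phf8, a histone lysine demethylase. The 33 genes were chosen by name, with earlier results of these data known. They were 23 of a synthesis arm (19 enzymes and 4 regulators) and 10 of a transport arm. The transport arm covered sterol transfer, export, the LXR nuclear receptors, hydroxylation and esterification. Of the 33 genes, 31 had a row among the 14410 genes of the deposited table, 23 in the synthesis arm and 8 in the transport arm. All 31 passed the filter on low values. Nr1h3 and Cyp27a1 had no row and were not analysed here.

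Control cells (ctrl) were wild-type CG4 cells transduced with a CAG-IRES-GFP retrovirus, and Phf8oe cells were the same line transduced with CAG-Phf8-IRES-GFP, so that Phf8 and GFP were driven by the broadly active CAG promoter. Both groups carried GFP, were sorted for it and expanded, had been kept in PDGF-AA and bFGF while dividing, and were moved to SATO-containing medium for 3 days to differentiate. Each group held 2 biological replicates of a sorted and expanded population of 1 cell line. The labels do not state if these were separate transductions, so the p-values measure only the spread between these samples, which may be technical.

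Cholesterol is built from acetyl-CoA through mevalonate, isoprenoid units, squalene and lanosterol. SREBP2, the product of Srebf2, switches on the genes of these enzymes when the endoplasmic reticulum is low in sterol. SCAP escorts SREBP2 to the Golgi, and the INSIG proteins hold it back. Myelin membrane is rich in cholesterol, and oligodendrocytes make most of theirs themselves. Cells dispose of sterol through the pumps ABCA1 and ABCG1, whose genes are targets of the LXR receptors, by 24-hydroxylation through CYP46A1, or by esterification through SOAT1.

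Values are normalized counts, the authors' gene counts scaled per library and rounded. Their totals lay between 39945215 and 41149255, and the spacing of the values put the reads behind them at about 28400000 to 47800000, lowest in Phf8oe replicate 2. Phf8 itself stood at 2026 and 2205 in ctrl and at 5650 and 10796 in Phf8oe, a log2 fold change of 1.89 (SE 0.35, n = 2 per group, limma adjusted p = 0.0631). The groups did not overlap, and the difference missed the threshold, though it passed in some alternative fits described in the closing section. Mitochondrial transcripts took 3.68% and 3.62% of the ctrl values and 5.34% and 4.76% of the Phf8oe values. Their part in the differences below was not tested.

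In Phf8oe the synthesis arm lay higher while the transport arm split. Of the 23 synthesis members, 6 rose (Hmgcs1, Mvd, Idi1, Hsd17b7, Ebp and Insig1), none fell and 17 did not pass an adjusted p of 0.05 (Benjamini-Hochberg, over all genes tested). Of all 14368 genes tested, 2.99% were called higher and 4.65% lower, or 7.64% in either direction. Among the 8713 genes with a mean of at least 500, a level closer to that of the members, 3.71% were called higher and 5.52% lower. Of the 8 transport members, Cyp46a1 rose and Abca1 fell. The remaining 6 did not pass.

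The median log2 fold change was 0.30 over the synthesis arm, 0.07 over the transport arm and 0.00 over all tested genes. A log2 fold change above 0 was found in 21 of the 23 synthesis members and in 5 of the 8 transport members, against 50.4% of all tested genes. In 16 of 23 synthesis members both Phf8oe libraries lay above both ctrl libraries, against 28.9% of all tested genes, and in 1 both lay below, against 28.7%. In the transport arm, 3 of 8 members stood apart in the higher direction and 3 of 8 in the lower direction. These counts and medians describe the lists and were not tested as such. The lists were chosen with earlier results of these data known, so the shares are not support from an independent choice.

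**Figure D1:**
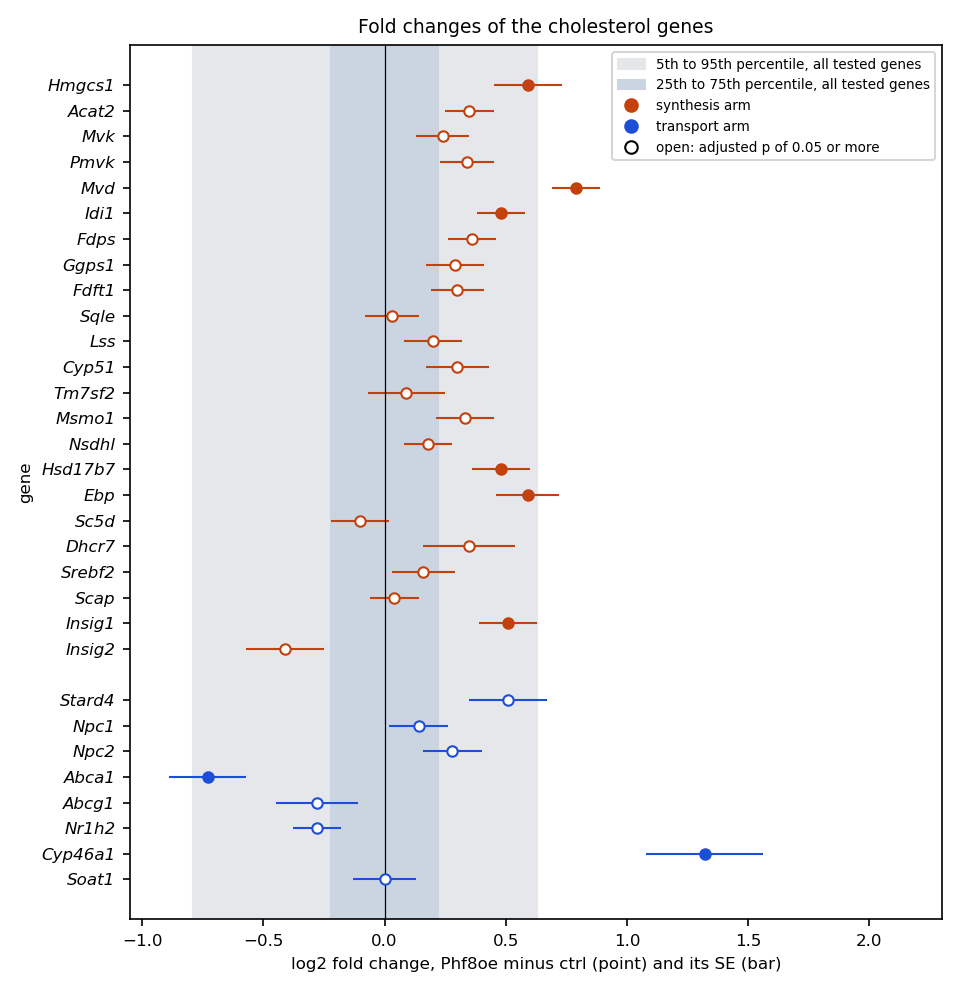
Log2 fold change (x axis, Phf8oe minus ctrl; point) with its SE (bar) for the 31 cholesterol genes (y axis), synthesis arm above and transport arm below; filled points have a limma adjusted p under 0.05, and the shaded bands give the middle of the distribution of all 14368 tested genes (-0.22 to 0.22 and -0.79 to 0.63). Most synthesis genes sit to the right of the inner band, with Mvd at 0.79, whereas the transport genes run from Abca1 at -0.73 to Cyp46a1 at 1.32.

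Stretches of the promoters of the 8 members that passed the test are shown because the genes of the synthesis arm have a feature in common there that was not used to choose them. Each is the 250 bases before the annotated start of the gene, 5′ to 3′ on the gene's strand, from RefSeq on the GRCr8 assembly. Capitals mark the letters CCAAT on either strand (ATTGG where the box lies on the opposite strand), the core of the box bound by NF-Y, a factor known to act beside SREBP on sterol genes.
Mvd, chr19:67414975-67415224, minus strand: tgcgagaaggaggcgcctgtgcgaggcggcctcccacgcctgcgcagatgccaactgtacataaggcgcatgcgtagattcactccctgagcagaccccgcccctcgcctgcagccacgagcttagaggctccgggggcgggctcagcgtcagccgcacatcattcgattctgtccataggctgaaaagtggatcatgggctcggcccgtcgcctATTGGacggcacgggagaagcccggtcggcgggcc
Idi1, chr17:66547525-66547774, minus strand: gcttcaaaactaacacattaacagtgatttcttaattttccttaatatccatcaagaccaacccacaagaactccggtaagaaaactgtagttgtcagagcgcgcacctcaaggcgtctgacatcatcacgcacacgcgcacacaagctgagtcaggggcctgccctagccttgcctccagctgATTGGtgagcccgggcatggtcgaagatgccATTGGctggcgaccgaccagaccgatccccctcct
Hmgcs1, chr2:53382054-53382303, plus strand: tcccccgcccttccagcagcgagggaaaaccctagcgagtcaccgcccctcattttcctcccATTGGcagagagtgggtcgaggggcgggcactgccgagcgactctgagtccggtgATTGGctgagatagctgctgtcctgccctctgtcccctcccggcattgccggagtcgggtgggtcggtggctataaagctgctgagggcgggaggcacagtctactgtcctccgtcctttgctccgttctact
Ebp, chrX:16971212-16971461, plus strand: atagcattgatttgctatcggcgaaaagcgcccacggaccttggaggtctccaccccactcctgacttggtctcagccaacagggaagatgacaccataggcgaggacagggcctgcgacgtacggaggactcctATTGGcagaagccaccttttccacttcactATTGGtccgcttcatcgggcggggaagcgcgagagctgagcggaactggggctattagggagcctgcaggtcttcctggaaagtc
Hsd17b7, chr13:84722755-84723004, minus strand: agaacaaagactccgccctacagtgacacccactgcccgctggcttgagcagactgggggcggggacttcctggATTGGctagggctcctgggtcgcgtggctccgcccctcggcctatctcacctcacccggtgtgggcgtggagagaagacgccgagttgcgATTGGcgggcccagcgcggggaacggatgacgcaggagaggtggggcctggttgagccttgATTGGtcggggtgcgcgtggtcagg
Insig1, chr4:8057770-8058019, minus strand: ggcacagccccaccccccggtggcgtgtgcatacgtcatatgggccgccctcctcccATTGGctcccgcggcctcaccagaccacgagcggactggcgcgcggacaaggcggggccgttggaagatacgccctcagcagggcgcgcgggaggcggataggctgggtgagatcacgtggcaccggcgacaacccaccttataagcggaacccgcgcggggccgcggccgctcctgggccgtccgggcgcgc
Cyp46a1, chr6:133011740-133011989, plus strand: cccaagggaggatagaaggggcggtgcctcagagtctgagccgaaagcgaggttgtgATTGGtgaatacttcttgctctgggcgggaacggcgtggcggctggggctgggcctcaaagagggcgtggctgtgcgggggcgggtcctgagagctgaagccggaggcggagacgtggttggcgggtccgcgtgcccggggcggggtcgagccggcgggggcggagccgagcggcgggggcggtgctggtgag
Abca1, chr5:72596474-72596723, minus strand: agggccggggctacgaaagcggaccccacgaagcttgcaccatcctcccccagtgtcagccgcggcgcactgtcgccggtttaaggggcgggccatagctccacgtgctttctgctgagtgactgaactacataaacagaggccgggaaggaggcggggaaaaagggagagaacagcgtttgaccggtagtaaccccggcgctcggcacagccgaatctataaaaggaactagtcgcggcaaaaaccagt

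The 6 synthesis genes that rose all had the CCAAT letters in this window: 3 matches in Hsd17b7, 2 each in Hmgcs1, Ebp and Idi1, and 1 each in Mvd and Insig1. Cyp46a1 had 1 match, 193 bases before the start, and Abca1 had none. Windows were at hand for 26 of the 31 members, 20 of them in the synthesis arm. The letters occurred in 16 of those 20 windows and in 3 of 6 transport windows, against 35.6% of the 9954 tested genes with a window and 34% of all 33469 windows. More than 1 match was found in 8 of the 20, against 12.7% of the tested genes. Of the 32 matches in the synthesis arm, 26 read ATTGG on the gene's strand, which was 81.2% against 50.6% in the tested genes.

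The letters also occurred in 10 of the 14 windows of synthesis genes that did not pass the test. Mvk and Nsdhl had 5 matches each and Msmo1 had 3, while Acat2, Cyp51, Dhcr7 and Scap had none. Median GC content was 60.8% in the synthesis windows and 60.4% in those of the tested genes. On both strands, 4 other sets of letters were searched. A core of the sterol regulatory element, CACNCCAC, was in 3 of 20 synthesis windows (Acat2, Ebp and Insig1) and none of 6 transport windows, against 5.09% of the tested genes. A longer form of the same core, TCACNCCAC, was in none of the members' windows and in 1.01% of the tested genes, and the shorter core lies within it. The Sp1 box GGGCGG was in 16 of 20 and 5 of 6, against 59.1%. The E-box CACGTG was in 3 of 20 and 1 of 6, against 7.97%. A match is a run of letters in one window, not a bound site.

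The early steps, from acetoacetyl-CoA to the isoprenoids, lay higher throughout. In all 8 of these enzyme genes the Phf8oe libraries stood above the ctrl libraries, with log2 fold changes from 0.24 to 0.79, and 3 of them rose. Mvd encodes mevalonate diphosphate decarboxylase, which yields the first isoprenoid unit. It stood at 2702 and 2926 normalized counts in ctrl and at 5044 and 4681 in Phf8oe. The groups lay far apart relative to the spread within each, and the log2 fold change was 0.79 (SE 0.10, limma adjusted p = 0.00456), or 1.73-fold.

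Hmgcs1, the cytosolic HMG-CoA synthase that feeds the mevalonate pathway, stood at 24759 and 29488 in ctrl and at 45775 and 35991 in Phf8oe. Phf8oe replicate 1 was the highest library and ctrl replicate 1 the lowest. The log2 fold change was 0.59 (SE 0.14, limma adjusted p = 0.0452). Idi1, the isomerase that balances both isoprenoid units, stood at 5452 and 5883 in ctrl and at 7515 and 8327 in Phf8oe, here with replicate 2 the higher Phf8oe library. Its log2 fold change was 0.48 (SE 0.10, limma adjusted p = 0.0282). Idi1 overlaps Wdr37 on GRCr8, whose log2 fold change was -0.17 (adjusted p = 0.437). Whether strand was used in counting is not stated, so reads of such a pair may not be separable.

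Among the early enzymes that did not pass, Acat2, the cytosolic acetoacetyl-CoA thiolase, stood at 3702 and 4053 against 4970 and 4905 (log2 fold change 0.35, adjusted p = 0.0632). Fdps, the farnesyl diphosphate synthase, stood at 18880 and 17660 against 24373 and 22611 (log2 fold change 0.36, adjusted p = 0.0663). Both passed with upper quartile scaling. The kinase genes Mvk and Pmvk had log2 fold changes of 0.24 and 0.34, and Ggps1, which makes the geranylgeranyl donor, 0.29. RefSeq lists 5 pseudogene symbols named for Fdps, 2 for Acat2 and 1 each for Idi1, Cyp51 and Nsdhl, and reads of these genes could in part fit such copies.

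From squalene to lanosterol no enzyme passed. Sqle, the squalene epoxidase and a slow step of the pathway, was nearly level: 27196 and 24750 in ctrl and 27871 and 25004 in Phf8oe, with overlapping groups. Its log2 fold change was 0.03, with a 95% interval from -0.23 to 0.28. Fdft1, the squalene synthase, had a log2 fold change of 0.30 (adjusted p = 0.112), and Lss, the lanosterol synthase, 0.20 (adjusted p = 0.321). In both, the Phf8oe libraries stood above the ctrl libraries, for Lss by a narrow margin in replicate 2, at 7535 against a higher ctrl value of 7361.

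Of the 8 enzymes from lanosterol to cholesterol, Ebp and Hsd17b7 rose. Ebp, the sterol isomerase that shifts the ring double bond, stood at 481 and 515 in ctrl and at 748 and 752 in Phf8oe. The Phf8oe libraries were almost equal, and the log2 fold change was 0.59 (SE 0.13, limma adjusted p = 0.0323). Hsd17b7, the keto-reductase of C4 demethylation, stood at 1645 and 1502 in ctrl and at 2392 and 2011 in Phf8oe, without overlap. Its log2 fold change was 0.48 (SE 0.12, limma adjusted p = 0.0461).

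The other late enzymes did not pass. Dhcr7, which carries out a final reduction, stood at 11778 and 12973 in ctrl and at 19239 and 12937 in Phf8oe. Replicate 1 was 1.49 times replicate 2, which lay within the ctrl range, and the adjusted p was 0.291. Cyp51, the lanosterol demethylase, had a log2 fold change of 0.30 (adjusted p = 0.176) and Msmo1, the C4 methyl oxidase, 0.33 (adjusted p = 0.118), each with groups apart. Nsdhl, the other dehydrogenase of C4 demethylation, had 0.18 (adjusted p = 0.269), also with groups apart. Tm7sf2, a sterol reductase, overlapped between groups at 0.09, and Sc5d, the sterol desaturase, overlapped at -0.10, the lowest of the enzymes.

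**Figure D2:**
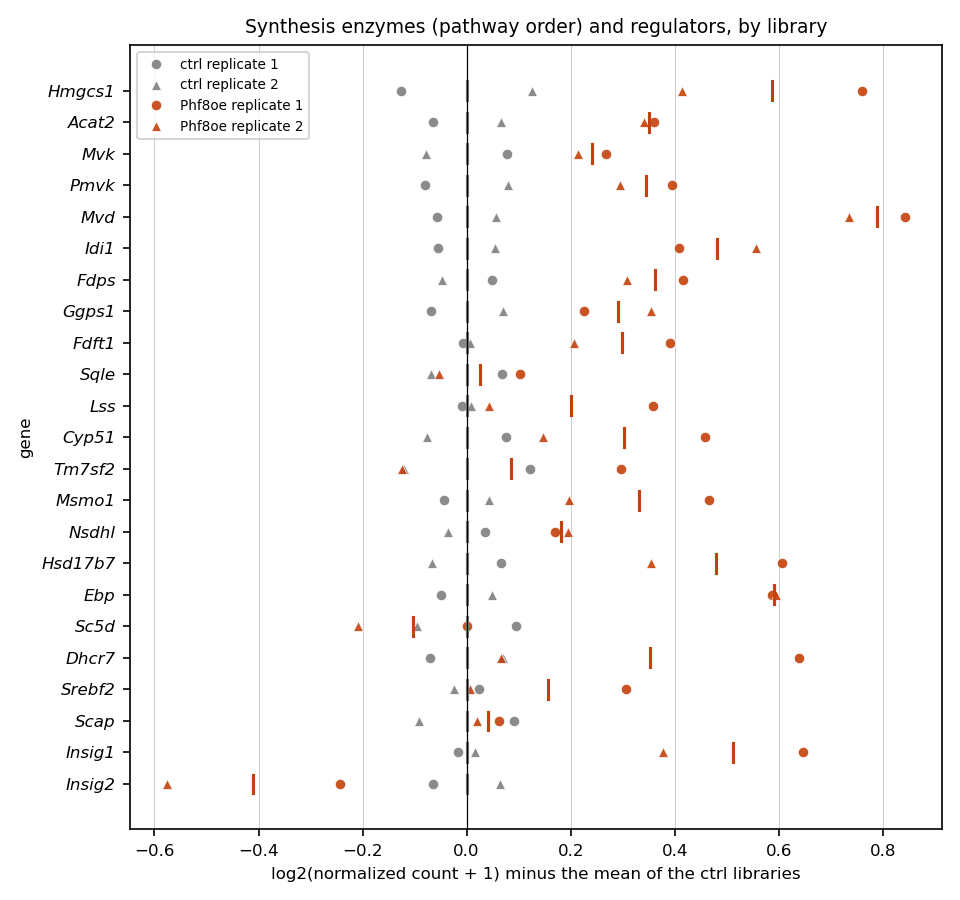
Value of each synthesis enzyme and regulator (y axis, enzymes in pathway order) in each library, as log2(normalized count + 1) minus the mean of the ctrl libraries (x axis); symbols are libraries and bars are group means. For 16 of the 23 genes both Phf8oe libraries lie to the right of both ctrl libraries, and for Insig2 both lie to the left.

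The regulators did not move as a block. Insig1, which retains SCAP in the endoplasmic reticulum and is itself an SREBP target, stood at 14150 and 14486 in ctrl and at 22412 and 18592 in Phf8oe. The ctrl libraries nearly coincided, and the log2 fold change was 0.51 (SE 0.12, limma adjusted p = 0.0339). Insig2, its paralogue with the same retaining role, stood at 622 and 680 in ctrl and at 549 and 436 in Phf8oe. Both Phf8oe libraries were thus below both ctrl libraries, with a log2 fold change of -0.41 (SE 0.16, adjusted p = 0.14), which did not pass.

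Srebf2 stood at 44211 and 42754 in ctrl and at 53733 and 43645 in Phf8oe. Phf8oe replicate 2 lay between the ctrl libraries, and the log2 fold change was 0.16 (SE 0.13, 95% interval -0.13 to 0.44, adjusted p = 0.467). Scap stood at 7001 and 6163 in ctrl and at 6862 and 6659 in Phf8oe, within the ctrl range, with a log2 fold change of 0.04 (SE 0.10, adjusted p = 0.836). The activity of SREBP2 depends on cleavage of the protein, which RNA levels do not measure.

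The synthesis genes also differed between the Phf8oe libraries. Phf8oe replicate 1 was the higher library in 19 of 23 synthesis members, against 48.5% of all tested genes, and the median ratio of replicate 1 to replicate 2 was 1.14, against 0.997. Relative to the ctrl mean, the median synthesis gene stood at 0.39 on the log2 scale in replicate 1 and at 0.21 in replicate 2, and at -0.01 and 0.01 in the ctrl libraries. The median transport gene stood at 0.21 and -0.07 in the Phf8oe libraries. The order within Phf8oe was opposite to that of Phf8, which was 5650 in replicate 1 and 10796 in replicate 2. With 2 libraries nothing can be read from that order.

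In the transport arm, the genes that bring sterol out of lysosomes or between membranes did not pass. Stard4, a soluble sterol carrier that is also an SREBP target, stood at 778 and 1081 in ctrl and at 1253 and 1365 in Phf8oe. The groups did not overlap, but the ctrl libraries differed by 1.39 times, and the log2 fold change was 0.51 (SE 0.16, adjusted p = 0.0928). Npc1, the lysosomal membrane protein that exports cholesterol, stood at 3559 and 3355 in ctrl and at 4176 and 3455 in Phf8oe, with overlap (log2 fold change 0.14, SE 0.12, adjusted p = 0.494). Npc2, the soluble lysosomal protein that hands sterol to NPC1, stood at 2883 and 2732 against 3755 and 3099, with both Phf8oe libraries higher (log2 fold change 0.28, SE 0.12, adjusted p = 0.168).

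The 3 measured genes of export and LXR signalling stood below ctrl in either Phf8oe library without overlap, against 28.7% of all tested genes. Of these 3, 1 fell, against 4.65% of all tested genes. Among 16 related genes of export, lipoproteins and LXR partners, 2 stood higher without overlap, 3 stood lower and 11 overlapped. Abca1, the pump that loads cholesterol onto lipid-poor apolipoproteins, stood at 5455 and 4262 in ctrl and at 2558 and 3299 in Phf8oe. Its groups lay apart although the libraries of each group differed by 1.28 and 1.29 times, and the log2 fold change was -0.73 (SE 0.16, limma adjusted p = 0.0423), which is 1.66-fold lower.

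Abcg1, the pump that passes sterol to formed lipoprotein particles, stood at 498 and 530 in ctrl and at 484 and 368 in Phf8oe, replicate 1 being close to ctrl (log2 fold change -0.28, SE 0.17, adjusted p = 0.328). Nr1h2, which encodes LXR beta, stood at 3919 and 3759 in ctrl and at 3055 and 3258 in Phf8oe (log2 fold change -0.28, SE 0.10, adjusted p = 0.108). Neither passed.

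Cyp46a1, the cholesterol 24-hydroxylase, is best known from neurons, where it makes an oxysterol that leaves the brain. It was a low gene, at 58 and 71 normalized counts in ctrl and at 165 and 159 in Phf8oe. The Phf8oe libraries were close and the ctrl libraries differed by 1.22 times, less than the gap between the groups. The log2 fold change was 1.32 (SE 0.24, 95% interval 0.78 to 1.86, limma adjusted p = 0.015), or 2.5-fold. Of all tested genes, 99.3% had a log2 fold change at or below that of Cyp46a1. Soat1, which esterifies cholesterol for storage, stood at 1524 and 1730 in ctrl and at 1793 and 1478 in Phf8oe (log2 fold change 0.00, SE 0.13, 95% interval -0.29 to 0.30).

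**Figure D3:**
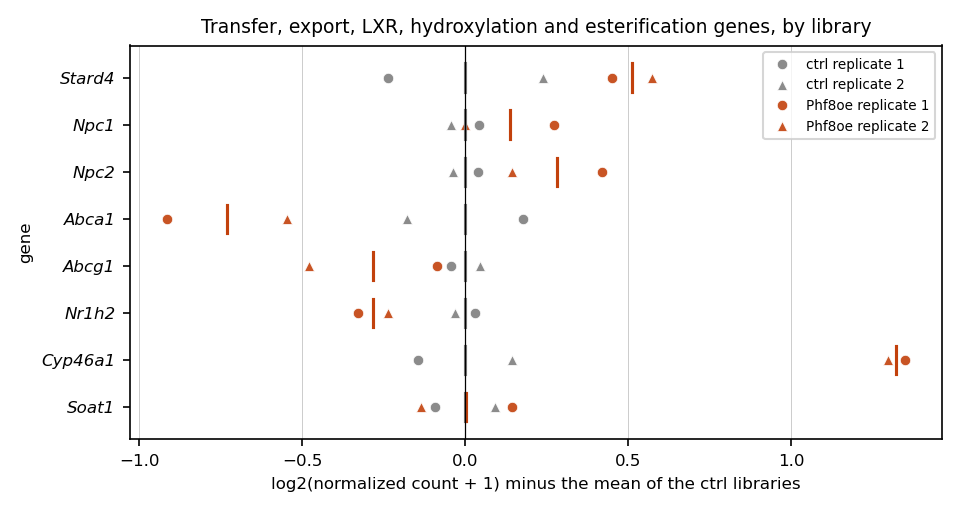
Value of the 8 measured transport genes (y axis) in each library, as log2(normalized count + 1) minus the mean of the ctrl libraries (x axis); symbols are libraries and bars are group means. Abca1, Abcg1 and Nr1h2 lie to the left of the ctrl libraries in both Phf8oe libraries, Cyp46a1 lies far to the right, and Soat1 and Npc1 overlap.

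Of 12 neuronal markers, set beside Cyp46a1 because of its known site, 11 were measured and Stmn2 had no row. Their summed level was 28967 and 23172 in ctrl and 15946 and 16586 in Phf8oe. Nefm, a neurofilament gene, was the one marker that passed, and fell (log2 fold change -1.70, limma adjusted p = 0.0315). Of the 11, 1 had a log2 fold change above 0 and 10 below, against 50.4% above 0 in all tested genes. Rbfox3, Snap25, Slc17a7, Gad1 and Gad2 were low, between 14 and 51 in the ctrl libraries. Most of the sum came from Syt1, Tubb3, Map2, Nefl and Nefm. The part of these neuronal markers in the rise of Cyp46a1 was not tested. In bulk samples, fewer cells of a type and less RNA per cell cannot be told apart. All 11 genes on a list of the oligodendrocyte lineage were measured: Mbp, Mag and Mog, which serve myelin, rose, and Pdgfra, the receptor of progenitors, fell. Their summed level was 454671 and 453266 in ctrl and 684065 and 619663 in Phf8oe. Much of that rise was Mbp: without it, the sum was 270229 and 279928 in ctrl against 343579 and 310788 in Phf8oe. Of the 11, 7 stood higher without overlap, against 28.9% of all tested genes. Another 3, Nkx2-2, Cspg4 and Pdgfra, stood lower without overlap, against 28.7%. The part of these lineage markers in the differences of the synthesis genes was not tested.

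Of the 9 astrocyte markers, Aqp4 had no row, Gfap fell and Aldh1l1 and Slc1a3 rose. Aldh1l1 was near the filter on low values, at 9 and 10 in ctrl and at 32 and 44 in Phf8oe. The summed level of the measured astrocyte markers was 127782 and 140749 in ctrl against 82162 and 82035 in Phf8oe. That direction rested on Gfap: without it, the sum was 48641 and 60013 in ctrl against 71328 and 62422 in Phf8oe. Of 10 microglial markers only Csf1r, P2ry12 and Cd68 had a row, none of them called, at a summed level of 307 and 197 in ctrl against 204 and 273 in Phf8oe. Of 8 fibroblast and pericyte markers only Col1a1, which fell, and Tagln had a row, at a summed level of 509 and 477 against 177 and 218, most of it Col1a1. All 7 Schwann cell markers were measured, and of these Egr2 fell. Their summed level was 105546 and 89918 against 75553 and 83932, and without Erbb3, the most abundant of them, 39954 and 39264 against 37706 and 40718, with overlap. The part of these markers in the fall of Abca1, which glia and macrophages also express, was not tested.

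Other genes of sterol biology, from 5 lists that did not include the members, mostly gave no call. Of 72 measured, 2 rose and 2 fell, and the median log2 fold change was 0.05. The share called was 5.56%, with 2.78% higher, against 7.64% and 2.99% of all tested genes. It was thus not above that of the table as a whole. Of 17 genes of SREBP processing and sterol-regulated degradation, Srebf1, which encodes SREBP1, rose from 191 and 273 to 396 and 423 (log2 fold change 0.84, adjusted p = 0.0411). Marchf6, a ubiquitin ligase that degrades squalene epoxidase, stood at 7484 and 6924 in ctrl and at 5635 and 5332 in Phf8oe, and fell (log2 fold change -0.39, limma adjusted p = 0.0463). It did not pass with upper quartile scaling. Protein was not measured.

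Of 19 genes of intracellular sterol transfer, Osbpl1a, an oxysterol-binding protein of late endosomes, rose from 517 and 454 to 794 and 773 (log2 fold change 0.69, adjusted p = 0.022). Cav1, the cholesterol-binding coat protein of caveolae, stood at 11954 and 9777 against 4781 and 5641, and fell (log2 fold change -1.06, limma adjusted p = 0.00429). None of 12 genes of the prenyl, dolichol and ubiquinone branches passed. Fnta, a subunit of the protein prenyl transferases, had a log2 fold change of 0.35 (adjusted p = 0.0632) and Rabggtb, of the Rab prenyl transferase, 0.25 (adjusted p = 0.13). None of 16 genes of export, lipoproteins and LXR partners passed. The abundant transporter gene Abca2 had a log2 fold change of 0.03 and the abundant Lrp1 one of -0.32, both with overlapping groups. None of 8 genes of oxysterol metabolism and ester hydrolysis passed, with the ester hydrolase genes Lipe at 0.06 and Nceh1 at -0.20.

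The calls rested on the ctrl libraries and on the variance model. The closing section describes 15 alternative fits. The crossed pairing of replicate numbers among them was added after seeing the data, and is left out of the ranges here. Over the other alternative fits that used all libraries, the limma adjusted p ranged from 0.00292 to 0.101 for Mvd. The range was 0.0354 to 0.177 for Abca1 and 0.0122 to 0.0944 for Cyp46a1. Without ctrl replicate 1, 14 genes of the whole table passed and none of the 8 called members did, though each kept its direction. Without ctrl replicate 2, 160 genes passed and Mvd was the only member among them (adjusted p = 0.0478). Srebf1, Marchf6 and Osbpl1a likewise missed the threshold without either ctrl library, Cav1 without ctrl replicate 1, and Marchf6 also without Phf8oe replicate 2. Without Phf8oe replicate 1, 7 of the 8 calls remained, Hsd17b7 being lost (adjusted p = 0.09), and Insig2 passed in the lower direction (log2 fold change -0.58, adjusted p = 0.039). Without Phf8oe replicate 2, all 8 remained, and Fdps, Fdft1, Lss, Cyp51, Msmo1, Dhcr7 and Npc2 also passed. In each such fit the spread within one group is taken from the other group's libraries. With the replicate number as a block, Mvd alone of the 8 called members kept its call (adjusted p = 0.0313), and adjusted p was 0.0568 for Cyp46a1 and 0.116 for Abca1. Without robust variance moderation, the members Mvd, Idi1, Ebp and Cyp46a1 passed, and the adjusted p of Abca1 was 0.0517. With no trend of variance with level, limma called none of the members and 0 genes of the whole table (3133 at an unadjusted p under 0.05).

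**Figure D4:**
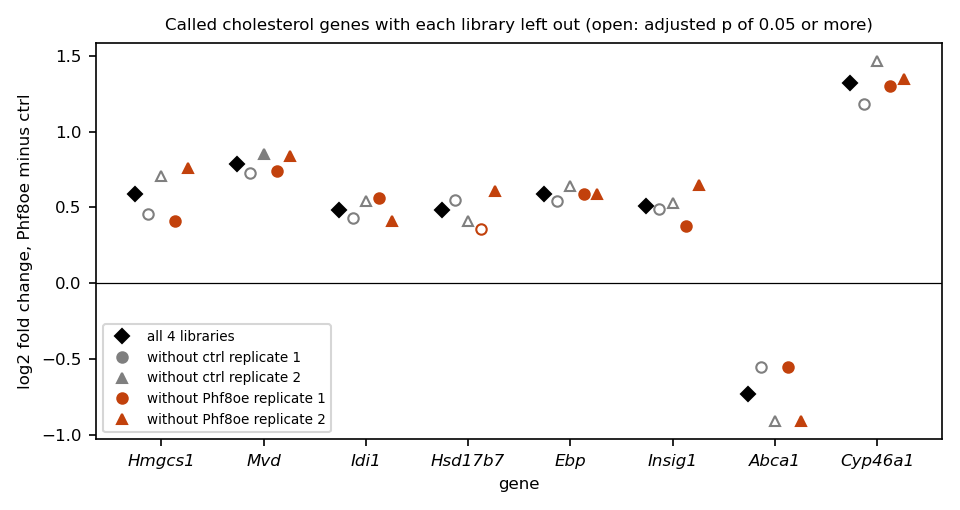
Log2 fold change (y axis, Phf8oe minus ctrl) of the 8 called cholesterol genes (x axis) with all libraries and with each library left out; filled symbols have a limma adjusted p under 0.05. Every point keeps its side of 0, Cyp46a1 between 1.18 and 1.47 and Abca1 between -0.91 and -0.55, while the points without a ctrl library are open, except for Mvd without ctrl replicate 2.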

How the data were processed

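RNA-seq (pairs of 150 bases) was available for 2 ctrl and 2 Phf8oe libraries. Per the submitters' processing notes, the authors used bcl2fastq 2.20, Trimmomatic 0.36, STAR 2.5.2b and DESeq2 with rn6 and Rnor_6.0; the counter, annotation and strand setting used are not stated there. Values are signal deposited by the authors as normalized counts, although the labels call them raw: 85 whole numbers from 10 to 299 never occur in Phf8oe replicate 2, as scaled and rounded reads would give. The value of 1 read was estimated as 0.8445, 1.0176, 0.9549 and 1.4159 (ctrl 1, ctrl 2, Phf8oe 1, Phf8oe 2). The 4 sample files equal their columns of the table.

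A quasi-likelihood count model did not suit such values, so limma 3.58.1 (R 4.3.3) was run on log2(value + 1), which understates fold changes of low genes. Genes needed a value of at least 10 in 2 libraries. Variance moderation followed the level and was robust (residual degrees of freedom 2, median prior 6.99). Two-sided p-values were adjusted by Benjamini-Hochberg over all tested genes with a threshold of 0.05. The procedure was tested on simulated data. The members and lists were chosen with earlier results of these data known. Named genes were Phf8, all members, the genes of related and marker lists past the threshold, or abundant ones where none passed; some genes of these lists are not reported here. Promoter windows came from RefSeq (GRCr8), not the build of the counts. Tables and plots were made in Python 3.11.15 with pandas 2.3.3, numpy 2.4.6 and matplotlib 3.10.9. Alternatives are described in the closing section.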

Additional observations from a re-analysis of the deposited data

How the results depend on the processing

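Log2 fold changes of the 8 called members kept their direction under all 15 alternative fits. With limma-voom on estimated reads, total or upper quartile scaling, other filters and other pseudocounts (0.5 and 8), the synthesis arm had 6 to 8 members called higher, its median ranged from 0.28 to 0.35, and the transport arm had 1 called higher and 1 lower. Without robust moderation, 3 synthesis members were called higher and 0 transport members lower. With no trend of variance with level, limma called 0 genes of the table (3133 at an unadjusted p under 0.05) and 0 members of either arm in either direction (9 synthesis and 1 transport member higher at an unadjusted p under 0.05, and 1 transport member lower). Limma-voom called 1227 genes. Phf8 passed without robust moderation (limma adjusted p = 0.0194) and with the replicate number as a block (limma adjusted p = 0.0313). It passed in no other fit that used all libraries. With 1 library left out, its log2 fold change ranged from 1.42 to 2.35.

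With the replicate number as a block, 373 genes were called in place of 1098, with 1 synthesis member and 0 transport members higher and 0 transport members lower (12, 3 and 2 at an unadjusted p under 0.05). The deviations of same-numbered libraries were only weakly correlated, in the negative direction (-0.126 over 14368 genes). A crossed pairing of the replicate numbers was added after seeing the data: 2354 genes were called, with 9 synthesis and 2 transport members higher. As its pairing was chosen from these data, nothing is concluded from its calls. The labels do not say that numbers pair samples.

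With 1 library left out, the calls ranged from 14 to 2103 genes. Synthesis members called higher ranged from 0 to 12 and lower from 0 to 1, transport members higher from 0 to 2 and lower from 0 to 1. The synthesis median ranged from 0.21 to 0.39 and the transport median from -0.07 to 0.21, negative without Phf8oe replicate 1, and counting Stard4 with synthesis moved the transport median to 0.00. Members near 0 changed sign, none of them called: Sqle ranged from -0.05 to 0.10, Tm7sf2 from -0.12 to 0.30, Sc5d from -0.21 to 0.00089, Scap from -0.05 to 0.13, Npc1 from -0.000207 to 0.27 and Soat1 from -0.14 to 0.14 (-0.02 with total scaling). The cause of these shifts was not tested. With 2 libraries per group, a member that did not pass is not shown to be unchanged.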
